A study of Homo sapiens with 24 samples.

Results

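The regions described here are stretches of transcript in which an m6A summit was listed in most EGFP and WT METTL14 libraries, in no library of the R298P line and in at most 1 of the D312A line. The series used HepG2, an established liver cancer cell line, transduced with lentivirus and selected with puromycin to make 4 stable lines. One expressed EGFP as the control, another METTL14 (WT), and the remaining lines METTL14 with the substitution R298P or D312A. METTL14 was an added gene in these, and the labels name no change to the cells' own METTL14. Each line gave 3 biological replicates, and poly(A) RNA was fragmented and precipitated with an anti-m6A antibody, which yielded 12 immunoprecipitated libraries, each with 1 deposited list of peak summits. To form regions, summits of any list that lay within 100 nt of each other were joined. A region was taken when it held a summit in at least 4 of the 6 EGFP and WT libraries, in 0 of 3 R298P libraries and in at most 1 of 3 D312A libraries. This left 746 of 34313 merged regions, or 2.17%, and 7.00% of the 10661 regions found in at least 4 of 6 EGFP and WT libraries. The absence from R298P and D312A is therefore how the regions were chosen and not a finding. METTL14 itself held 1 summit in each EGFP library and 3 to 11 in each library of the other lines.

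N6-methyladenosine is written into mRNA by a complex in which METTL3 carries the catalytic site and METTL14 holds the RNA. WTAP, VIRMA and RBM15 guide the complex, and proteins with a YTH domain read the mark and direct splicing, translation or decay of the transcript. The mark lies mostly in a GGAC-like context and is densest near stop codons and in the last part of transcripts. Both substitutions sit in the methyltransferase part of METTL14.

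Sequence was at hand for 3 of the 746 regions, those whose middle fell in a 300-base RefSeq promoter window (GRCh38.p14). They are shown because they let the letters under a missing summit be seen. Each is 30 bases around the middle of the region, 5′ to 3′, with GGAC, the core of the m6A context, or its reverse complement GTCC in capitals.
CREBZF, chr11:85663715-85663744, minus strand: cttagtgGGACatcttcaccGGACacattt
TATDN2, chr3:10280820-10280849, plus strand: gagcatatcaaagtgtttatagtcaccaag
near the start of PTPRG, chr3:61561365-61561394, plus strand: ctGTCCcagtagaggccgcgcggagagagc

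The CREBZF sequence, on the strand of that gene, held GGAC at 2 places, and the TATDN2 sequence held it on neither strand. The sequence near PTPRG held it only on the strand opposite to the one printed. The TATDN2 region lies in the span of TATDN2, but its sequence was read from the promoter window of GHRLOS. Among the 119 other regions of at least 4 EGFP and WT libraries that could be read the same way, 43 or 36.1% held GGAC on either strand, against 2 of these 3. The CREBZF region (CREBZF encodes a leucine zipper protein of the endoplasmic reticulum stress response) stood at percentiles 63.2 and 56.8 in EGFP replicates 2 and 3 and at 63.4 and 61.8 in WT replicates 2 and 3. A percentile here is the place of a summit's deposited value within its own list, with 100 the highest. The region was found in neither replicate 1 library, and 0 of 6 R298P and D312A libraries held it. The TATDN2 region was found in all 6 EGFP and WT libraries, between percentiles 16.8 and 63.2, and in D312A replicate 3 at 54.5.

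Of the 746 regions, 563, 583 and 517 were present in EGFP replicates 1, 2 and 3, and 551, 532 and 616 in WT replicates 1, 2 and 3. The counts of the EGFP and WT lines overlapped. The regions present averaged 554 ± 33.8 in EGFP and 566 ± 44.0 in WT (SD, n = 3 each). WT minus EGFP was 12 regions on average, a description only, since the rule used presence in these libraries. It was -12 in replicate 1, -51 in replicate 2 and 99 in replicate 3, so it had no common sign, also within replicates 2 and 3, whose list names share a letter that those of replicate 1 lack. The sign turned without EGFP replicate 3 (-6.67) or without WT replicate 3 (-12.8). D312A replicates 1, 2 and 3 held 168, 74 and 181 of the regions. The D312A lists held 12357, 8669 and 12350 summits, and the regions present equalled 1.36%, 0.854% and 1.47% of these. Both the count and the share were thus lowest in replicate 2, the shortest list. The lists of EGFP averaged 13966 ± 1357 summits, those of WT 14177 ± 1358, of R298P 12424 ± 1139 and of D312A 11125 ± 2127 (SD, n = 3 each), and the part of list length in the choice of regions was examined only by reducing every list to its 8669 best summits. Then 358 regions met the rule, and 199 of the 746, or 26.7%, overlapped one of them. Summits called per list do not tell less methylation of a transcript from less of the transcript, and in such bulk RNA fewer cells and less RNA per cell cannot be told apart.

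**Figure D1:**
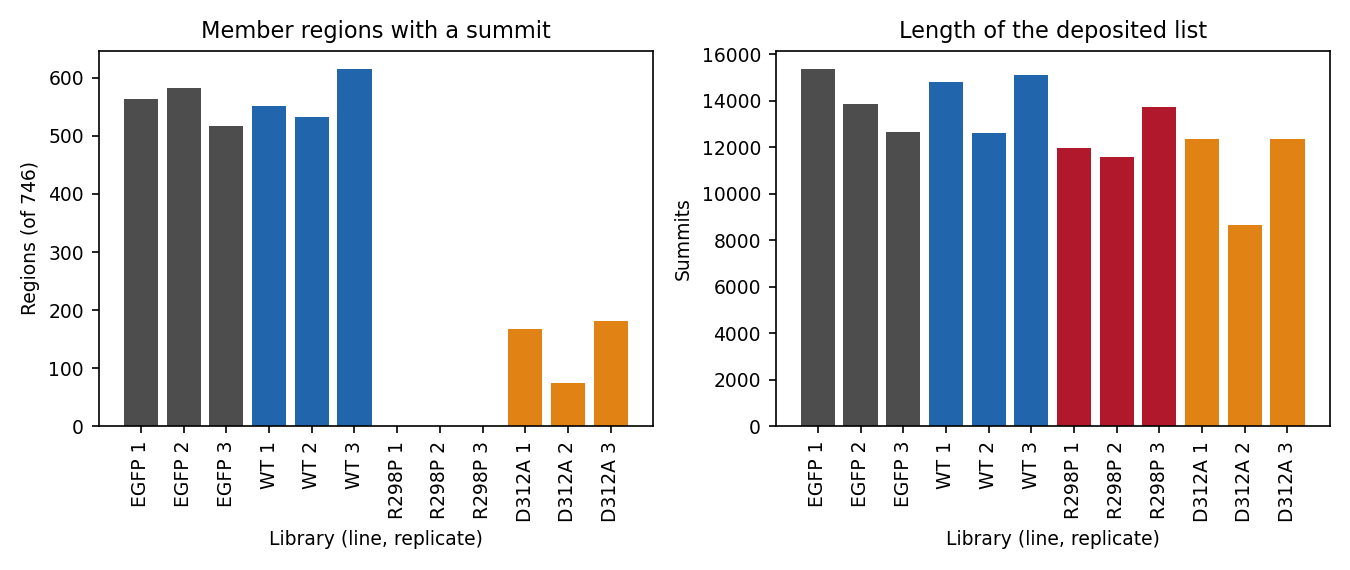
Number of the 746 regions with a summit in each of the 12 libraries (left) and number of summits in each deposited list (right), by line and replicate. The 6 EGFP and WT bars lie between 517 and 616 regions, the R298P bars are 0 by the rule, and D312A replicate 2, the shortest list with 8669 summits, holds 74 regions.

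Most of the regions stood near the thresholds of the rule. A summit in exactly 4 of the 6 EGFP and WT libraries was the case for 451 regions, in 5 for 212 and in all 6 for 83. These were 19.6% of the 2305 merged regions in exactly 4 of these libraries, 8.49% of the 2496 in 5 and 1.42% of the 5860 in all 6. In D312A, 323 regions had no summit and 423 had 1. Only 22 regions, of the 5860 in all 6 EGFP and WT libraries, were present in none of the 6 others. By origin, 285 regions were found in 2 EGFP and 2 WT libraries, 69 in 3 and 1, and 97 in 1 and 3, EGFP first. Both replicate 1 libraries held 418 of the regions, 1 of them held 278 and neither held 50. Just outside the rule lay 893 regions with 3 of 6 EGFP and WT libraries, 792 with 1 R298P library and 239 with 2 D312A libraries.

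Regions without an R298P summit also lacked D312A summits more often. Among the regions with at least 4 EGFP and WT libraries, 1041 had no R298P summit, and 746 of these, or 71.7%, had at most 1 D312A summit. That share was 48.3% of 1640 regions with 1 R298P library, 26.5% of 2452 with 2 and 9.15% of 5528 with all 3. These shares are a description, since both axes belong to the rule, and the part of region strength in them was not tested.

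The regions were weak in the libraries that held them. Their mean percentile over the EGFP and WT lists had a median of 39.9 (quartiles 27.7 and 51.9), against a median of 58.8 for the 9915 other regions of at least 4 EGFP and WT libraries and 77.8 for the 3401 regions of all 12 libraries. The gap remained within each number of libraries. It was 38.2 against 42.6 for regions in 4 libraries, 40.0 against 48.4 for those in 5 and 48.6 against 69.4 for those in 6. Of regions whose mean percentile was at most 25, 15.8% were among the 746, against 12.1% of those between 25 and 50, 5.04% of those between 50 and 75 and 0.674% of those above 75. The mean percentile of the summits in these regions was 41.5 ± 1.08 in EGFP and 40.5 ± 2.11 in WT (SD, n = 3 each), a difference of -0.946 (two-sided exact permutation test, p = 0.6, where 3 against 3 libraries allow 0.1 at the smallest).

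**Figure D2:**
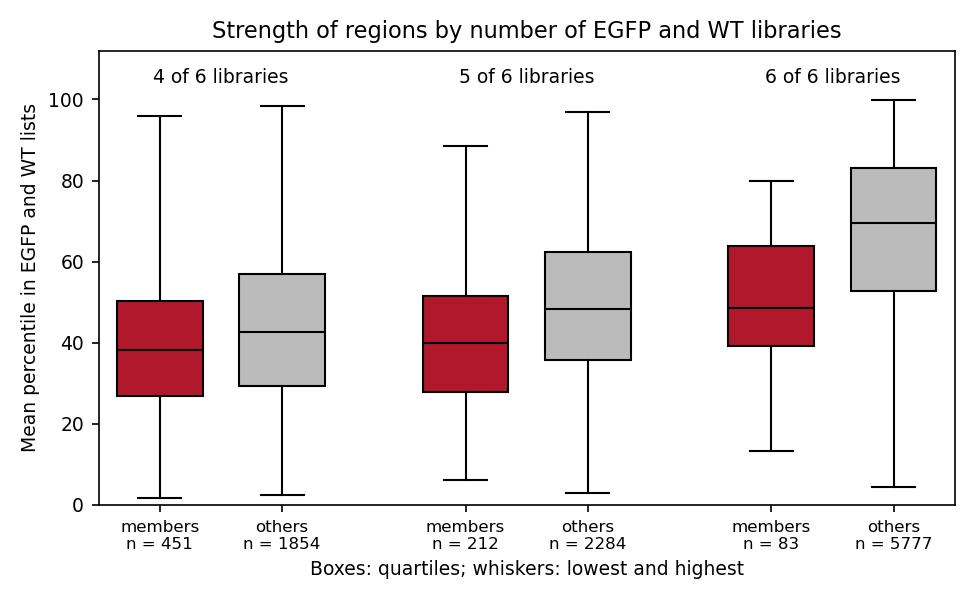
Mean percentile of a region's summits within the EGFP and WT lists that held it, for regions in 4, 5 or 6 of these libraries, with the 746 regions in red and the other regions in grey. Boxes give quartiles and whiskers the lowest and highest values; the medians in red are lower than those in grey at each number of libraries, and furthest apart, 48.6 against 69.4, at 6.

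Of the 22 regions present in all 6 EGFP and WT libraries and in 0 of the 6 others, 2 lay outside gene spans, 1 lay where FASTKD5 and UBOX5 overlap, and the others lay in genes of varied function. The strongest by mean percentile was in PARD6G, a cell polarity protein (chromosome 18, 80157879 to 80157905), with 74.2, 82.0 and 85.4 in EGFP replicates 1 to 3 and 84.1, 54.6 and 82.1 in WT replicates 1 to 3. An R298P summit lay 136 nt from its edge, and with merging within 200 nt it was no longer selected. The region in INF2, a formin that assembles actin filaments (chromosome 14, 104704304 to 104704329), stood at 87.9, 79.5 and 69.5 in EGFP and 83.8, 55.4 and 68.3 in WT. No R298P summit lay within 8009 nt of it. BHLHA15, a transcription factor of secretory cells (chromosome 7, 98213210 to 98213230), stood at 87.2, 76.3 and 54.1 in EGFP and at 78.0, 70.2 and 68.3 in WT. The gene had 1 or 2 summits in every EGFP and WT library, 0 in each R298P library and 1 in D312A replicate 3, outside the region. PERP, a p53 target found in desmosomes (chromosome 6, 138091979 to 138091994), stood at 45.2, 95.0 and 76.9 in EGFP and at 53.8, 78.8 and 42.0 in WT. In each of these regions the EGFP and WT values overlapped.

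EDC3, an enhancer of mRNA decapping (chromosome 15, 74632781 to 74632810), stood at 38.1, 77.7 and 76.8 in EGFP and at 34.2, 47.8 and 36.8 in WT. Further members of the 22 were in ATP10D, a phospholipid flippase, UBTF, a factor of RNA polymerase I, RNF187, a ubiquitin ligase, SRA1, an RNA coactivator that is also translated, and the genes MYO9B, ZNF211, P3H4, BEND7 and KLHL18. QRICH1, a transcriptional regulator of the stress response of the endoplasmic reticulum, was the weakest of the 22, with a mean percentile of 20.5. Of the 22 regions, 5 had an R298P summit within 200 nt of the edge and 9 had none within 1000 nt. With merging within 200 nt 17 of the 22 were still selected, and 14 were when every list was reduced to its 8669 best summits.

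**Figure D3:**
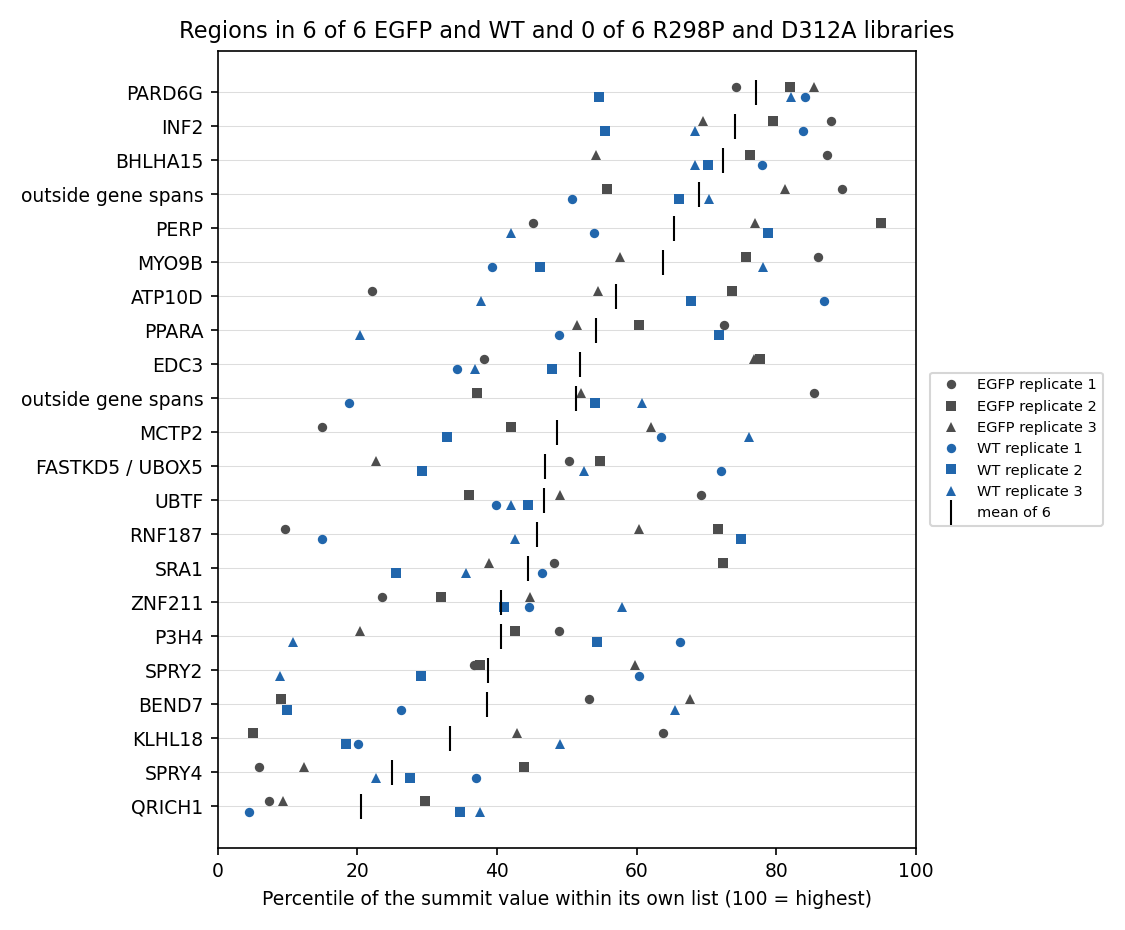
Percentile of the summit value within its own list for the 22 regions found in 6 of 6 EGFP (grey) and WT (blue) libraries and in 0 of 6 R298P and D312A libraries; symbols mark replicates and the bar the mean of 6. Values of 1 region differ widely between libraries, as in MCTP2 from 14.9 to 76.1, and the EGFP and WT symbols are mixed.

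A second group of strong regions was picked by their values: 18 of the 746 had a mean percentile above 75. The highest was in SNRNP35, which belongs to the minor spliceosome (chromosome 12, 123466129 to 123466136), at 98.7 in EGFP replicate 1 and 85.5, 99.4 and 99.8 in WT replicates 1 to 3, with 75.7 in D312A replicate 2. EGFP replicates 2 and 3 lacked it, and an R298P summit lay 175 nt away. HIRA, a histone chaperone (chromosome 22, 19331003 to 19331024), stood at 92.6 and 77.5 in EGFP replicates 2 and 3 and at 86.9 and 86.4 in WT replicates 2 and 3, with no R298P summit within 39373 nt. Both replicate 1 libraries lacked it. INTS14, a subunit of the Integrator complex (chromosome 15, 65579432 to 65579438), stood at 81.3, 95.2 and 80.8 in EGFP, at 84.3 in WT replicate 3, slightly lower in WT replicate 2, and at 90.3 in D312A replicate 3, and R298P libraries had a summit 193 nt away. POLRMT, the mitochondrial RNA polymerase (chromosome 19, 621287 to 621299), stood at 84.1 and 84.9 in EGFP replicates 1 and 3 and at 78.7 and 76.9 in WT replicates 2 and 3. Its nearest R298P summit was 8521 nt away. Unlike the INTS14 region, it was still selected with merging within 200 nt. PWP1 (chromosome 12, 107712316 to 107712351), which takes part in ribosome production, was found in all 6 EGFP and WT libraries, from 60.7 to 95.3, and in D312A replicate 1 at 70.5.

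An R298P summit close by was listed most often around the strongest regions, and so were summits of the other lines. Of the 18 regions above percentile 75, 9 had an R298P summit within 200 nt of the edge, or 50.0%, while 8 had a further EGFP summit, 6 a WT summit and 7 a D312A summit there. Of the 142 regions at or below percentile 25, 23 did, or 16.2%. In regions present in at least 1 R298P library, the share with a further R298P summit at that distance was 21.6% above percentile 75 and 16.4% at or below 25. Over all 746 regions, 151 or 20.2% had an R298P summit within 200 nt and 335 or 44.9% within 500 nt. The same count within 500 nt was 372 for EGFP, 363 for WT and 319 for D312A. Among the 9915 other regions 50.8% had a further R298P summit within 500 nt. For 343 regions the nearest R298P summit was more than 1000 nt away.

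**Figure D4:**
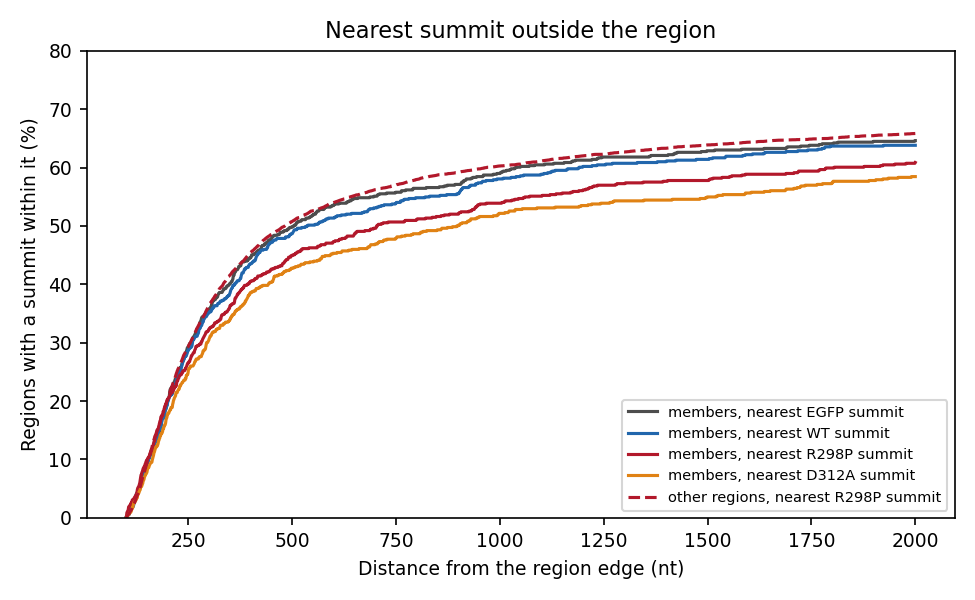
Share of the 746 regions with a summit of the given line, in any of its 3 libraries, within a distance of the region's edge (solid lines), and the same for R298P summits around the 9915 other regions (dashed). Distances start above 100 nt because closer summits were merged; at 500 nt the R298P line reaches 44.9% and the EGFP line 49.9%.

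By annotation, 663 of the regions lay in the span of a single protein-coding gene and 20 in that of a single lncRNA gene. For a further 36 the spans of several genes overlapped, and 27 lay outside the spans of such genes. The protein-coding share of 88.9% compared with 87.5% of the other regions of at least 4 EGFP and WT libraries. Exons and introns were not told apart here. The strand was known for 544 of the 663, and these lay at a median of 87.1% of the span from the 5′ end, against 85.3% for 7222 other regions. Within 1000 nt of the 3′ end of the span lay 127 regions or 23.3%, against 16.4% of the others and 16.5% of regions in all 12 libraries. Among regions in exactly 4 EGFP and WT libraries the shares were 20.9% of 325 and 12.9% of 1284, and among those in 5 or 6 they were 26.9% of 219 and 17.1% of 5938. Within 1000 nt of the 5′ end the shares were 5.70% and 6.09%. They were 6.46% against 9.66% among regions in exactly 4 EGFP and WT libraries, and 4.57% against 5.32% among those in 5 or 6. The first 10% of the span held 6.62% against 8.60%. On single chromosomes with at least 50 such regions, between 4.42% (chromosome 20) and 9.74% (chromosome 12) of them were among the 746, with 7.42% on chromosome 19.

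**Figure D5:**
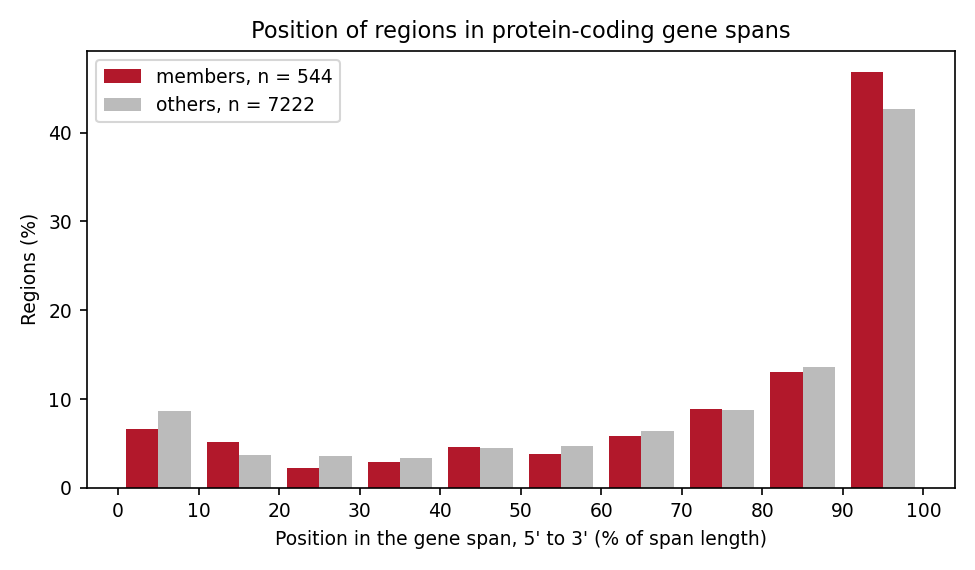
Position of regions in the span of protein-coding genes, in steps of 10% from the 5′ to the 3′ end, as a share of the 544 regions described here (red) and of 7222 other regions (grey). The last 10% of the span holds 46.9% of the red and 42.7% of the grey.

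The regions assigned to 1 gene lay in 652 genes, which are 12.3% of the 5299 genes with a region in at least 4 EGFP and WT libraries. Elsewhere in these 652 genes other summits were found in all lines. EGFP libraries held 1178 ± 107 of them, WT libraries 1187 ± 90.3, R298P libraries 1078 ± 97.0 and D312A libraries 959 ± 199 (SD, n = 3 each). As a share of each list they were 8.44% ± 0.109, 8.38% ± 0.176, 8.68% ± 0.0468 and 8.60% ± 0.159, in this order. These shares are of whole lists, in which the chosen regions are counted too. Those regions equalled 3.98% of list length in EGFP, 4.00% in WT, 0 in R298P by the rule and 1.23% in D312A. The share of summits in the other genes with a region in at least 4 EGFP and WT libraries was also higher in R298P and D312A. It was 66.6%, 66.3%, 68.7% and 69.7%, in the same order. A summit in all 3 R298P libraries was seen in 365 of the 652 genes, in 1 or 2 of these libraries in 155, and in none in 132. The rule takes R298P summits out of the chosen regions, so the like count for the other lines leaves these regions out. Outside them, 125 genes had no summit in any EGFP library, 127 had none in WT and 154 had none in D312A. In 55 genes no library of either substitution line held a summit. The rule takes part in that count too, and no like count was made for EGFP and WT together.

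The counts that follow also include the chosen regions, so the rule takes part in them. Of the 132 genes without any R298P summit, 28 had one in all 6 EGFP and WT libraries, and 5 of these had none in D312A either. They were chosen by their values: CDKN1B, the cell cycle inhibitor p27; DHX15, an RNA helicase of the spliceosome; GGT1, a gamma-glutamyltransferase; MCTP2, a membrane protein with calcium-binding domains; and the lncRNA PNISR-AS1. The CDKN1B region (chromosome 12, 12718254 to 12718258) stood at 30.4, 37.8 and 54.7 in EGFP replicates 1 to 3 and at 63.1 and 48.9 in WT replicates 1 and 2. WT replicate 3 held its CDKN1B summit elsewhere in the gene. MCTP2 (chromosome 15, 94479270 to 94479282), one of the 22 regions above, stood at 14.9, 42.1 and 62.1 in EGFP and at 63.4, 32.9 and 76.1 in WT. The GGT1 region was far weaker, with no percentile above 4.08 in the 4 libraries that held it. KRI1, a factor of ribosome assembly, and TUFT1 each held 2 of the 746 regions, and no R298P library held a summit in either gene. KRI1 had 1 D312A summit, in replicate 1, and TUFT1 had 2, in replicate 3.

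Among genes of the m6A machinery, 2 of 8 methyltransferase and writer complex genes with a region in at least 4 EGFP and WT libraries, and 3 of 9 erasers and readers, hosted one of the regions, beside 12.3% of all such genes. YTHDC2, a reader with a helicase domain, had its region (chromosome 5, 113593547 to 113593552) in every EGFP and WT library, at 77.6, 79.4 and 77.6 in EGFP and 54.5, 74.4 and 88.3 in WT, and at 55.0 in D312A replicate 1. It was the only summit assigned to the gene in those libraries. YTHDF2, a reader that promotes decay, had its region (chromosome 1, 28769060 to 28769110) at 70.1, 2.98 and 51.1 in EGFP, at 73.4, 12.7 and 51.3 in WT and at 61.4 in D312A replicate 3. Outside the region, the gene had 3 summits in each R298P library. YTHDF3, its relative (chromosome 8, 63187729 to 63187733), was found in replicates 1 and 3 of EGFP and of WT and in no other library. Elsewhere in this gene every R298P library held 4 or 5 summits.

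VIRMA, the scaffold of the writer complex, had a region (chromosome 8, 94488620 to 94488640) at 33.3 and 46.3 in EGFP replicates 1 and 2, at 71.2, 39.5 and 9.78 in WT and in no D312A library. Over its whole span VIRMA held 4, 3 and 2 summits in EGFP, 2, 3 and 5 in WT, 1, 2 and 2 in R298P and 1 in each D312A library. METTL16, a separate methyltransferase that methylates the U6 RNA and the mRNA of the S-adenosylmethionine synthetase MAT2A, had its region (chromosome 17, 2420378 to 2420402) at 48.1, 26.7 and 43.1 in EGFP, 38.3 and 34.9 in WT replicates 1 and 2, and 65.9 in D312A replicate 3. An R298P summit lay 134 nt away, and with merging within 200 nt the METTL16 region was no longer selected.

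Of receptor tyrosine kinase feedback genes, 2 of 12 or 16.7% hosted such regions, beside 12.3% of all genes with a region in at least 4 EGFP and WT libraries. SPRY4, an inhibitor of this signalling, held 2 neighbouring ones, 192 nt apart, and no D312A library held either. The first (chromosome 5, 142311265 to 142311324) was in all 6 EGFP and WT libraries at low percentiles, between 5.89 and 43.9. The second (142311516 to 142311534) stood at 47.9 and 50.6 in EGFP replicates 2 and 3 and at 26.5, 48.1 and 39.0 in WT. SPRY2, a second inhibitor (chromosome 13, 80337300 to 80337322), stood at 36.6, 37.6 and 59.8 in EGFP and 60.3, 29.1 and 8.84 in WT, with an R298P summit 136 nt away. Of suppressors of cytokine signalling, 2 of 7 or 28.6% did. SOCS1 (chromosome 16, 11254568 to 11254580) stood at 70.7 and 43.8 in EGFP replicates 2 and 3, at 31.8, 63.8 and 27.7 in WT and at 43.0 in D312A replicate 3, and R298P libraries held no summit in the gene. SOCS5 (chromosome 2, 46759748 to 46759769) stood at 93.4 and 97.4 in EGFP replicates 2 and 3, at 83.9 and 78.3 in WT replicates 2 and 3 and at 65.2 in D312A replicate 2. An R298P summit lay 132 nt away.

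Of lipid and xenobiotic nuclear receptor genes 2 of 13 or 15.4% hosted such regions, beside 12.3% of all genes with a region in at least 4 EGFP and WT libraries. PPARA, a receptor that drives fatty acid oxidation, held 2 of them, in no D312A library. The region at 46239041 to 46239066 on chromosome 22 stood at 72.5, 60.3 and 51.4 in EGFP and 48.8, 71.7 and 20.3 in WT, and an R298P summit lay 198 nt away. The region at 46238115 to 46238127 was in EGFP replicate 1 at 31.6 and in WT at 22.3, 22.4 and 19.8. RXRA, the partner of PPARA on DNA, held 1 in 5 EGFP and WT libraries (chromosome 9, 134440419 to 134440516), in 2 of them below percentile 3. FOXA3, a liver transcription factor, held 2 neighbouring regions, 224 nt apart, and was the only host among 16 such factors, or 6.25%.

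Transferrin, encoded by TF, held 2 of the regions 439 nt apart on chromosome 3. That at 133762312 to 133762325 stood at 96.8 and 86.0 in EGFP replicates 1 and 3, at 95.2, 70.1 and 94.7 in WT and at 70.3 in D312A replicate 1. That at 133761836 to 133761873 was in all 6 EGFP and WT libraries, between 43.8 and 91.2, and at 51.0 in D312A replicate 1. The nearest R298P summits were 1922 nt and 2374 nt away. All summits in TF numbered 15, 1 and 13 in EGFP and 16, 6 and 8 in WT. R298P libraries held 9, 3 and 4 and D312A libraries 14, 10 and 0. Summits in 10 hepatocyte markers, TF among them, also differed widely between replicates, with 53, 10 and 80 in EGFP replicates 1 to 3 and 96, 34 and 31 in those of WT. R298P replicates held 68, 14 and 22 of them and D312A replicates 77, 77 and 7. Their part in the TF regions was not tested. Each of these 10 genes, with ALB, APOB and HNF4A, held a summit in at least 1 library. Of 15 markers of other cells 5 held a summit, with 0 to 4 such summits per library, and COL1A1, DCN, PTPRC, CD14 and VWF held none. AFP, the fetal albumin, held 1 of the regions at percentiles of at most 16.3.

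In the MYC network 3 of 8 genes or 37.5% hosted 5 of the regions, beside 12.3% of all genes with a region in at least 4 EGFP and WT libraries. MGA, a MAX-binding repressor, held 2, of which that at 41766217 to 41766247 on chromosome 15 stood at 36.6, 74.1 and 56.1 in EGFP and at 83.1 and 65.7 in WT replicates 2 and 3, with an R298P summit 133 nt away. MLXIP, a glucose-sensing partner of MLX, held 2, at 122142015 to 122142042 and 122143511 to 122143522 on chromosome 12. The MYC region (chromosome 8, 127740610 to 127740623) was weak, at 30.3 and 19.7 in EGFP replicates 2 and 3 and at 9.92, 12.9 and 3.76 in WT. Of Wnt and beta-catenin genes 3 of 23 or 13.0% hosted regions, near the share of all genes. They were NKD1, which inhibits dishevelled, FZD5, a receptor, and ZNRF3, a ubiquitin ligase that removes such receptors. The ZNRF3 region (chromosome 22, 29053648 to 29053655) was the strongest of these, at 78.3, 60.5 and 76.7 in EGFP, 78.1 and 63.4 in WT replicates 2 and 3 and 78.9 in D312A replicate 3. Among histone acetyltransferase and methyltransferase genes 4 of 22 or 18.2% hosted regions, namely KAT2A, KMT2A, KMT2C and KMT2D. The KMT2D region (chromosome 12, 49031730 to 49031760) was present in all 6 EGFP and WT libraries, between 40.2 and 62.3, with an R298P summit 205 nt away. A D312A summit lay 199 nt away, and with merging within 200 nt the KMT2D region was no longer selected.

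The other lists gave counts near or below the 12.3% of all genes. Regions were hosted by 35 of 265 zinc finger genes named ZNF (13.2%, with the antisense RNA ZNF407-AS1 among the 35), 14 of 118 solute carriers (11.9%), 2 of 34 GTPase regulators, 1 of 32 ubiquitin-specific proteases, 2 of 14 Hippo pathway genes, 2 of 18 insulin and mTOR signalling genes, 2 of 14 lipid droplet and cholesterol genes, 2 of 14 secreted liver proteins and 2 of 14 CCR4-NOT and microRNA genes. NPC1L1, the intestinal and hepatic cholesterol importer, stood at 73.4, 60.1 and 77.2 in EGFP and at 76.5 in WT replicate 1, with an R298P summit 174 nt away. PLIN2, a coat protein of lipid droplets, stood between 2.55 and 34.8 in the 5 EGFP and WT libraries that held it. IRS1, an adaptor of the insulin receptor, stood at 30.3, 63.5 and 21.6 in EGFP and at 49.9 and 49.4 in WT replicates 1 and 3, with an R298P summit 179 nt away.

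Among solute carriers, SLC35C1, which brings GDP-fucose into the Golgi, held 2 of the regions, in no D312A library. That at 45811457 to 45811471 on chromosome 11 stood at 42.6, 80.4 and 66.3 in EGFP and at 71.8 and 43.6 in WT replicates 1 and 2. SLC38A10, an amino acid transporter (chromosome 17, 81245082 to 81245088), stood at 74.9 and 51.5 in EGFP replicates 1 and 2, at 48.0, 56.8 and 77.0 in WT and at 51.1 in D312A replicate 3. For DICER1, which cuts microRNA precursors (chromosome 14, 95124467 to 95124477), the nearest R298P summit was 20528 nt away and the percentiles spread from 10.7 to 71.4 in 4 EGFP and WT libraries. The KLF family had 1 of 10, immediate early genes 1 of 11 and TRAF adaptors with their receptors 1 of 11. None of 4 SR splicing factors, 8 mitotic genes and 4 nuclear long noncoding RNAs hosted one. 

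In all, 31 genes held 2 of the 746 regions and none held more. The gap between the 2 was at most 500 nt in 14 of these genes, and the shortest was 150 nt in BAG3, a chaperone partner of HSP70. A like count of pairs was not made for other regions. A further EGFP summit lay within 500 nt of 49.9% of the 746 regions and of 54.8% of the 9915 other regions of at least 4 EGFP and WT libraries. MARVELD2, a protein of tricellular tight junctions, held 2 regions 239 nt apart. The stronger (chromosome 5, 69419899 to 69419945) stood at 78.5, 74.0 and 72.5 in EGFP, at 78.3, 79.5 and 64.5 in WT and at 70.9 in D312A replicate 2. An R298P summit lay 127 nt from it. The long noncoding RNA LINC00342 held 2 regions 259 nt apart, the stronger (chromosome 2, 95824832 to 95824845) at 91.7 and 84.7 in EGFP replicates 1 and 3 and at 78.9, 64.5 and 47.2 in WT, with 48.9 in D312A replicate 1. At the other extreme, ARID1A, a subunit of the SWI/SNF chromatin remodeller, held its 2 regions 77331 nt apart. C8A, a liver-made component of complement, held 2 that were 57024 nt apart, both weak, with no percentile above 49.6.

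The regions just outside the rule gave the following values. Among regions with 1 R298P library the strongest were in FBXL19, PKP2 and AP3D1, with mean percentiles of 92.3, 90.6 and 88.5. Among those with 2 D312A libraries and no R298P library they were in ARRB1, PTCHD4 and NFIC, with 95.6, 93.5 and 92.3.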

How the data were processed

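Per the labels, m6A was measured in poly(A) RNA of 4 HepG2 lines with 3 replicates each. The authors deposited 1 summit list per immunoprecipitated library, whose value is a −log10 p or q value (which of these was not stated) with minima from 5.00 to 5.03. Per the submitters' processing notes the tools included STAR 2.7.9a, MACS2 2.1.2 and bedtools 2.17.0, and the build was hg38; for read depth, threshold and control library nothing is given in the sources used here. The depth being unknown, no counting interval was set. Values were used only as percentiles within a list. Groups and replicate numbers came from titles.

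Summits were merged within 100 nt with Python 3.11.15. The code of the rule was checked on simulated regions that lay too far apart to be joined, so close neighbours were not covered. A region was assigned to the only protein-coding RefSeq gene (GRCh38.p14) spanning it, else to the only lncRNA gene; strand came from the promoter table. WT and EGFP mean percentiles were compared with a two-sided exact permutation test over 20 assignments (SciPy 1.17.1). No test is given on what the rule used, presence in a library included, although one had been planned for the number of regions in WT and EGFP. Members, gene lists and tests were chosen with earlier results of these data known. Named were the regions present in all 6 EGFP and WT and none of the 6 other libraries, by mean percentile, and the 3 strongest just outside each limit. Of the regions in listed genes and of the genes with 2 regions, only some were named. Further regions were named that are said to be chosen by value.

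A table of input expression was not used, because the names of its 18 per-library columns match no sample label and its gene identifiers could not be paired with symbols. Without a genome or exon models the planned motif search covered only promoter windows.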

Additional observations from a re-analysis of the deposited data

How the results depend on the processing

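The 746 regions became 793 with merging within 50 nt, 590 within 200 nt and 667 with only summits of a value of at least 10; 700, 561 and 323 of the original regions overlapped one selected under these settings. When every list kept only its 8669 best summits, the count was 358, of which 199 of the original regions overlapped one, and 139 regions were selected under all 4 settings. It was 295 with at least 5 of 6 EGFP and WT libraries, 83 with all 6, and 323 with 0 of 3 D312A libraries. Leaving out each library gave 398 to 1117 regions, lowest without WT replicate 3 and highest without R298P replicate 3; without an EGFP or WT library the rule asks for 4 of 5. The count of regions with an R298P summit close by was 335 within 500 nt, 151 within 200 nt and 402 within 1000 nt. WT minus EGFP in regions per library ranged from -12.8 to 29.2 on leaving out 1 library, turning below 0 without EGFP replicate 3 (-6.67) or WT replicate 3 (-12.8). The difference in mean percentile ranged from -1.72 to 0.259, turning above 0 without WT replicate 2. With the replicate block these differences were 12 and -0.946 (for the latter, exact sign-flip permutation test, p = 0.75, where the smallest possible is 0.25). Deviations of EGFP and WT libraries with the same number correlated at 0.144, 0.0296 and 0.0114. Replicate 2 of each line correlated with replicate 3 of the other at 0.0425 and 0.0640. Replicate 1 of either line correlated negatively with replicates 2 and 3 of the other, from -0.0945 to -0.0542. Replicates 2 and 3 were thus no closer to their own number, and the numbers were not taken as pairs. The 3 values of each library with the other line nearly cancelled, so the negative values are not separate from the 0.144. Whether replicate 1 stood apart from replicates 2 and 3 was not tested. Counting every gene whose span holds a region, 441 of 768 genes had a summit in all R298P libraries, against 365 of 652. The depth behind the lists is unknown, so a missing summit is not an absent mark.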
